A study of Solanum lycopersicum and Solanum pennellii and Solanum pimpinellifolium with 52 samples.

Results

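The transcriptomes of root and stem were compared in 4 root libraries and 4 stem libraries of RNA-seq, which are 8 of the 52 libraries of the series. They were chosen by their labels and fall into 4 root and stem pairs of the same species and light. Root and stem of S. pennellii (strain LA716, a wild relative of tomato) and of S. lycopersicum (cultivated tomato, strain LA3475, titled M82) were each sampled under artificial shade (red over far-red light of 0.48) and artificial sun (3.1). Each combination of species, organ and light had 1 library, and neither the age of the plants nor the number of plants per library is given. The p-values rest on how far shade and sun libraries of a species disagreed from tissue to tissue, over all 24 libraries of the factorial (both species, 6 tissues, both lights), and part of that spread may be technical.

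Roots and stems are the axial organs of the plant: the root takes up water and minerals, and the stem carries water and sugars between root and leaves and holds the shoot upright. Roots grow in the dark and bear root hairs, whereas stems bear a cuticle, trichomes and green cortical cells. Both contain xylem and phloem.

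Expression was given as RPKM, the reads of a gene divided by its length in kilobases and by the read total of its library. The root libraries held 1796969 to 3941803 reads and the stem libraries 1860581 to 2911214. The table names gene models by locus ID, and 0 of its 28298 IDs matched the gene table of RefSeq assembly SLM_r2.1, so no gene is given a name or a role, and the labelled organs were not set against named marker genes. Of the 28298 gene models, 23871 had a read in at least 1 of the 8 libraries, and 22512 were tested. In bulk samples, fewer cells of a type and less RNA per cell cannot be told apart.

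The organ was the main difference among the 8 libraries. On log2(RPKM + 1) the first principal component held 51.6% of the variance and placed the 4 root libraries between 91.3 and 109 and the 4 stem libraries between -109 and -90.1. The second component held 21.6% and separated S. pennellii (59.3 to 67.2) from S. lycopersicum (-95.9 to -46.5) in both organs. Across genes, libraries of the same organ in different species had Pearson correlations of 0.850 to 0.906, whereas root and stem of the same species had 0.768 to 0.801. Libraries of the same species and organ, which differ in light, had 0.933 to 0.961. These are descriptions across genes, which are not independent replicates.

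**Figure D1:**
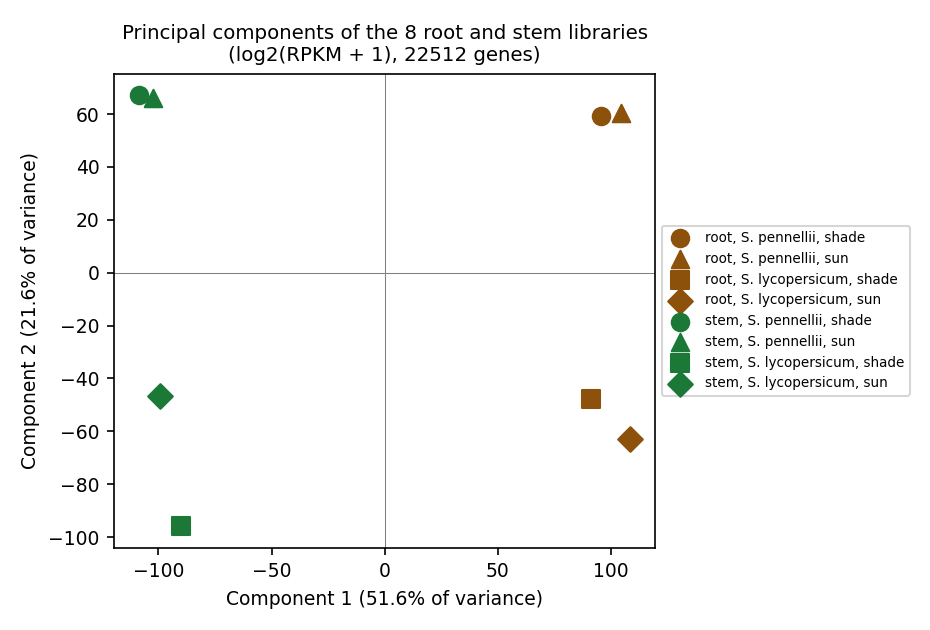
Scores of the 8 libraries on the first (x axis, 51.6% of variance) and second (y axis, 21.6%) principal components of log2(RPKM + 1) over 22512 genes. Brown points are root and green points stem libraries, and the marker shape gives species and light. Root lies right and stem left of 0 on the first component.

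Root and stem differed in a large share of their transcripts: 5677 of 22512 genes (25.2%) differed between root and stem at an adjusted p under 0.05 and a log2 difference of at least 1 (limma, mean of both species). Of these, 3469 (15.4% of genes tested) were higher and 2208 (9.81%) lower in root. The median log2 difference was 1.79 among the higher and -1.69 among the lower genes, against 0.17 over all genes tested. A log2 difference of at least 4 was reached by 367 of the higher and 99 of the lower genes. All 4 root libraries lay above all 4 stem libraries in 2331 of the 3469 higher genes and below them in 1443 of the 2208 lower genes, while over all genes tested 13.9% lay above and 8.25% below. All 4 pairs had the same sign in 2859 of the higher and 1859 of the lower genes, against 8548 of all 22512 genes. The genes were called on these same libraries, so these counts are descriptions. With a pseudocount of 5 in place of 1, 3365 genes were called.

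The balance of the directions depended on how the libraries were scaled. As deposited, 61.1% of called genes were higher in root, whereas with median-ratio size factors it was 53.6% (2911 genes against 2523 lower). With quantile normalization it was 47.8% (2701 genes against 2951 lower). The median log2 difference of all genes was then 0.04 and -0.01. Of the 3469 genes called higher, 2911 were called higher again with size factors and 2684 with quantile normalization. Of the 2208 called lower, 2188 and 2207 were called lower again. The reads recovered from the RPKM values gave 3203 higher and 2929 lower genes in limma voom. That fit also used median-ratio factors for its library sizes. A fit of only the 8 libraries, blocked by pair, called 2498 higher and 1605 lower.

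**Figure D2:**
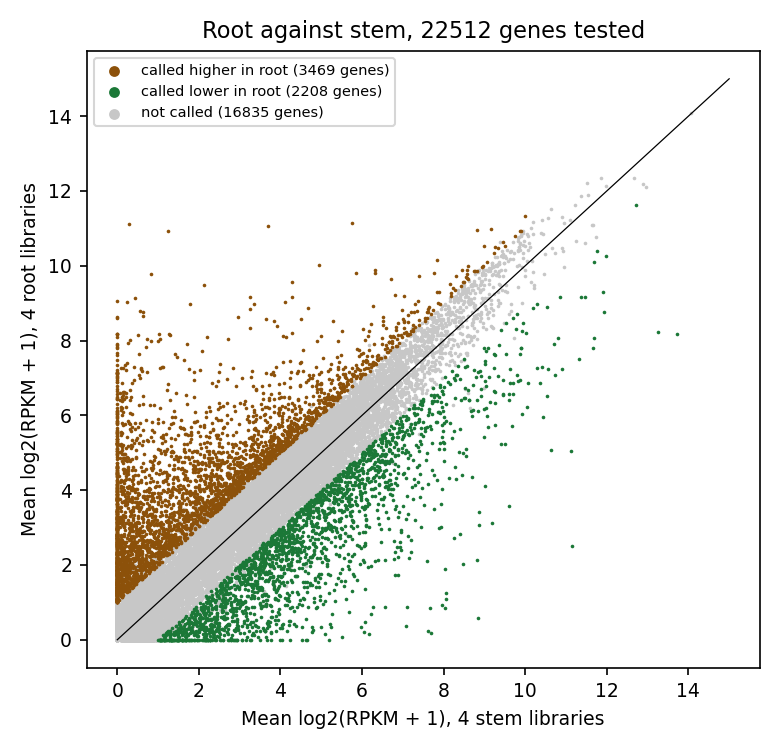
Mean log2(RPKM + 1) over the 4 root libraries (y axis) and over the 4 stem libraries (x axis), 1 point per gene tested. Brown points were called higher (3469) and green points lower (2208) in root, grey points were not called, and the line marks equal levels. Brown points reach higher along the left edge, where stem values are 0, than green points reach along the bottom edge, where root values are 0.

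The calls were also counted by average level. The level includes the root and stem values themselves, so the classes are not independent of the calls and the shares are descriptions. Among 7535 genes with a mean under 5 RPKM over the 24 factorial libraries, 20.3% were higher and 5.34% lower in root. Among 3325 genes with a mean of 50 RPKM or more, 10.8% were higher and 17.2% lower. With quantile normalization the low genes had 15.6% higher and 9.26% lower, and the high genes 9.71% higher and 19.9% lower. The 11652 genes between these limits had 13.6% higher and 10.6% lower as deposited, but 11.2% and 12.3% with size factors and 10.3% and 13.7% with quantile normalization.

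Each gene set took a larger share of the reads in the organ where it was higher. As a description of genes chosen on these libraries, the 3469 higher genes took 19% ± 0.973 of the reads in root and 4.98% ± 0.468 in stem (SD, n = 4 each). The 2208 lower genes took 5.76% ± 0.339 in root and 26.5% ± 1.97 in stem. More genes reached 1 RPKM in root (18041 to 19025 per library) than in stem (16662 to 17921), a mean difference of 1178 genes. The pair differences were 1525 and 1092 genes in S. pennellii (shade and sun) and 120 and 1974 in S. lycopersicum. In S. lycopersicum depth moved with them: the pair with 120 had 1796969 reads in root and 2911214 in stem, the pair with 1974 had 3941803 in root and 2273686 in stem, and its part in the difference was not tested. Within pairs, the exact two-sided permutation p was 0.125, the smallest that 4 pairs allow, so the difference did not pass. Exchanging libraries across species and light gave 0.0286, the smallest that 4 against 4 libraries allow.

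The largest rise in root belonged to Solyc04g014320.1.1. It had 3065 and 3292 RPKM in S. pennellii root (shade and sun) and 1852 and 1282 in S. lycopersicum root, against 1.21, 0, 0 and 0 RPKM in the corresponding stem libraries. The root values rest on 7800 reads and the stem values on 1 read, so the fitted log2 difference of 10.83 ± 0.71 (SE, limma adjusted p = 1.7e-08) depends on the pseudocount. Its mean was 51.1 RPKM in the seedling libraries of the factorial and 4.91 RPKM in leaf.

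Solyc11g011330.1.1 had 2297 and 2471 RPKM in S. pennellii root and 1555 and 1641 in S. lycopersicum root, against 4.06 and 1.0 RPKM in S. pennellii stem and 0 and 2.05 in S. lycopersicum stem. The groups did not overlap, and the root mean was 1119-fold higher (log2 difference 9.69 ± 0.36 SE, limma adjusted p = 9.1e-11). The 4 pairs differed by 8.83 to 10.60 on the log2 scale, and its species difference of -0.29 ± 0.71 did not pass the test (adjusted p = 0.90). Of the other tissues, seedling had 66.0 RPKM and the 3 others at most 1.26 RPKM on average.

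Further genes higher in root were chosen for their level there. Solyc09g075210.2.1 had 1467 and 748 RPKM in S. pennellii root and 3426 and 5382 in S. lycopersicum root, against 1.35 and 5.48 RPKM in S. pennellii stem and 220 and 7.48 in S. lycopersicum stem. The root mean was 47.1-fold higher (log2 difference 7.35 ± 0.67 SE, adjusted p = 4.8e-07), and S. lycopersicum in shade had both the highest stem value and the smallest pair difference, 3.96. It was also abundant elsewhere, with means of 1002 RPKM in leaf and 774 RPKM in seedling.

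Solyc01g111300.2.1 was high in both organs, with 1993 and 3505 RPKM in S. pennellii root and 3531 and 1831 in S. lycopersicum root, against 1365, 1233, 496 and 1296 RPKM in the stem libraries in the same order. All root values lay above all stem values, by 2.47-fold on average (log2 difference 1.35 ± 0.34 SE, limma adjusted p = 0.0055). The pairs were uneven, with log2 differences of 0.55 and 1.51 in S. pennellii (shade and sun) and 2.83 and 0.50 in S. lycopersicum. Within S. pennellii the difference of 1.03 ± 0.48 (SE) was not called (limma adjusted p = 0.134). Within S. lycopersicum it was 1.66 ± 0.48 (adjusted p = 0.018) and was called. The mean of Solyc01g111300.2.1 was higher still in inflorescence, at 3003 RPKM, than in root, at 2715 RPKM. The call over both species was lost in the fit of the 8 libraries alone (adjusted p = 0.109, range over the alternatives 0.000419 to 0.109). Without the S. lycopersicum shade root library the log2 difference over both species was 0.90 (adjusted p = 0.034).

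Among genes lower in root, Solyc08g067030.2.1 showed the largest difference. It had 10.4 and 3.67 RPKM in S. pennellii root and 2.14 and 5.38 in S. lycopersicum root, against 4759 and 2306 RPKM in S. pennellii stem and 631 and 3907 in S. lycopersicum stem. The highest root value was far below the lowest stem value, and the stem mean was 538-fold higher (log2 difference -8.64 ± 0.37 SE, adjusted p = 3.4e-10). The other tissues had means of 263 RPKM (vegetative meristem) to 892 RPKM (seedling), all above root.

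Solyc06g072350.2.1 had 0 and 0 RPKM in S. pennellii root and 1.07 and 1.46 in S. lycopersicum root, against 429 and 1007 RPKM in S. pennellii stem and 203 and 485 in S. lycopersicum stem. These values rest on 4 reads in root and 2419 in stem (log2 difference -8.24 ± 0.40 SE, adjusted p = 8.2e-10). The size of the difference depends on the pseudocount, with -10.27 at 0.1 and -6.36 at 5. Leaf had a higher mean than stem for this gene, at 1064 RPKM against 531 RPKM, while seedling had 2.76 RPKM.

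The called genes with the highest stem level were each the most abundant transcript of 1 library. Solyc07g064160.2.1 had 1727 and 1068 RPKM in S. pennellii root and 272 and 12.9 in S. lycopersicum root, against 17944 and 12819 RPKM in S. pennellii stem and 12236 and 12092 in S. lycopersicum stem. The mean was 770 ± 780 RPKM in root and 13773 ± 2799 RPKM in stem (SD, n = 4 each), with the S. pennellii shade library well above the 3 other stem libraries. The log2 difference was -5.55 ± 0.82 (SE, adjusted p = 7.4e-05). Its species difference of 4.15 ± 1.64 did not pass the test (adjusted p = 0.19). Leaf was close to stem for this gene, with a mean of 12941 RPKM and a highest value of 18478 RPKM, above every stem value. Solyc12g094620.1.1 had 546, 305, 351 and 133 RPKM in the root libraries and 11830, 8035, 11347 and 8694 RPKM in the stem libraries, in the order used above (29.9-fold lower in root, log2 difference -5.05 ± 0.39 SE, adjusted p = 8.8e-08), and its leaf mean was 5063 RPKM. These transcripts took 1.29% to 1.91% and 1.19% to 1.75% of the reads of the stem libraries.

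**Figure D3:**
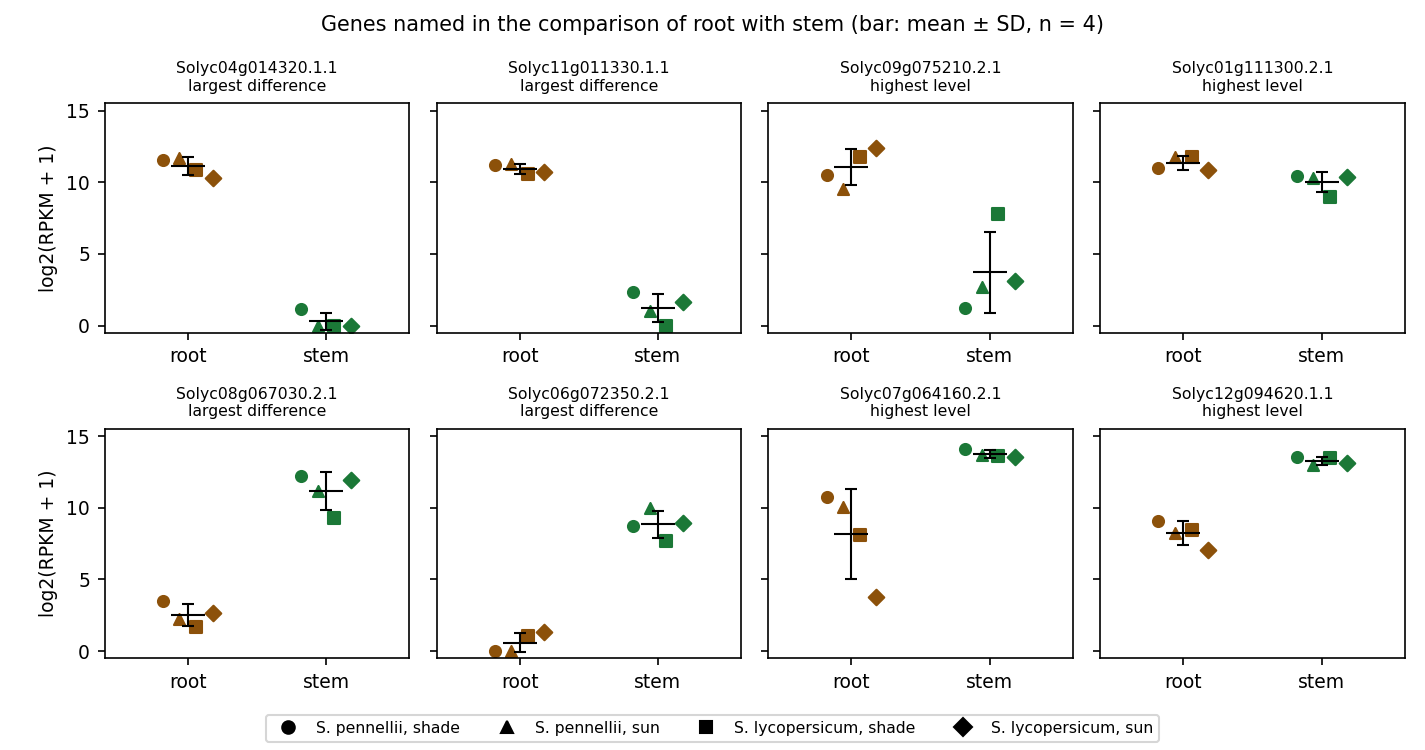
Values of log2(RPKM + 1) (y axis) in the root (brown, left) and stem (green, right) libraries for the genes higher in root (top row) and lower in root (bottom row), chosen for the largest difference or for the highest level in the higher organ. Marker shape gives species and light, and the bar is the mean ± SD of 4 libraries. The organs do not overlap in any panel, and root values of Solyc07g064160.2.1 are the most spread of the 8 genes' root values.

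More transcripts were seen in root and not in stem than the reverse. Of 23871 gene models with a read in the 8 libraries, 2094 had reads in root only and 948 in stem only. With no read in the 4 stem libraries, 699 gene models had 10 or more reads and 222 had 100 or more reads in the 4 root libraries. In the other direction, 128 gene models had 10 or more and 8 had 100 or more reads in stem and none in root. These limits in reads were not adjusted for depth, which averaged 2.65e+06 reads per root library and 2.39e+06 per stem library. The part of depth in these counts was not tested. A count of 0 over an organ still allows a level of up to 3 reads. The following genes were picked afterwards, as those with the most reads.

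Solyc10g083880.1.1 had 93.9 and 99.1 RPKM in S. pennellii root and 375 and 728 in S. lycopersicum root, against 0 reads in stem, so that its level was at least 902-fold higher in root (floor of 3 reads over the 4 stem libraries, reads pooled over the root libraries). Without the S. lycopersicum sun root library, which held 2144 of its 2998 reads, the limit was 409-fold. Solyc09g005500.2.1 had 267, 346, 333 and 732 RPKM in the root libraries and 0 reads in stem, at least 682-fold higher, or 455-fold without the same library. Both also had reads in factorial seedlings (means of 23.2 and 15.3 RPKM) and at most 1.31 RPKM on average in the shoot tissues other than stem.

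Solyc11g069890.1.1 had 0 reads in root, against 34.8, 24.7, 18.6 and 14.7 RPKM in the stem libraries, at least 142-fold lower in root, and its next highest mean was 9.58 RPKM in inflorescence. Solyc06g006110.2.1 also had 0 reads in root, against 11.5, 46.5, 24.2 and 26.3 RPKM in stem, at least 112-fold lower in root, but its mean was higher in leaf, at 91.5 RPKM. These 4 genes were chosen by the reads of the compared libraries, so no test is given, and counting floors cover counting error only.

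The genes higher in root were largely genes whose highest level of all 6 tissues was in root, whereas stem was highest for about as many of the genes lower in root as the other tissues together. By mean RPKM over both species and lights, 80.9% of the 3469 higher genes had their highest level in root, 8.24% in inflorescence and 5.77% in seedling. Stem was highest for 49.8% of the 2208 lower genes, leaf for 16.6%, inflorescence for 16.3% and the vegetative meristem for 13.1%. Over all genes tested, root was highest for 30.5%, stem for 15.7%, leaf for 8.64%, inflorescence for 28.4% and the vegetative meristem for 9.76%. The median level of the genes higher in root was 16.3 RPKM in root, 4.16 in seedling and 1.64 to 2.20 in the 4 other tissues. The median level of the genes lower in root was 4.99 RPKM in root and 24 in stem, with 13.8 to 18.8 in the 4 others. Root and stem values chose these genes, so the share highest in each organ is a description only.

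**Figure D4:**
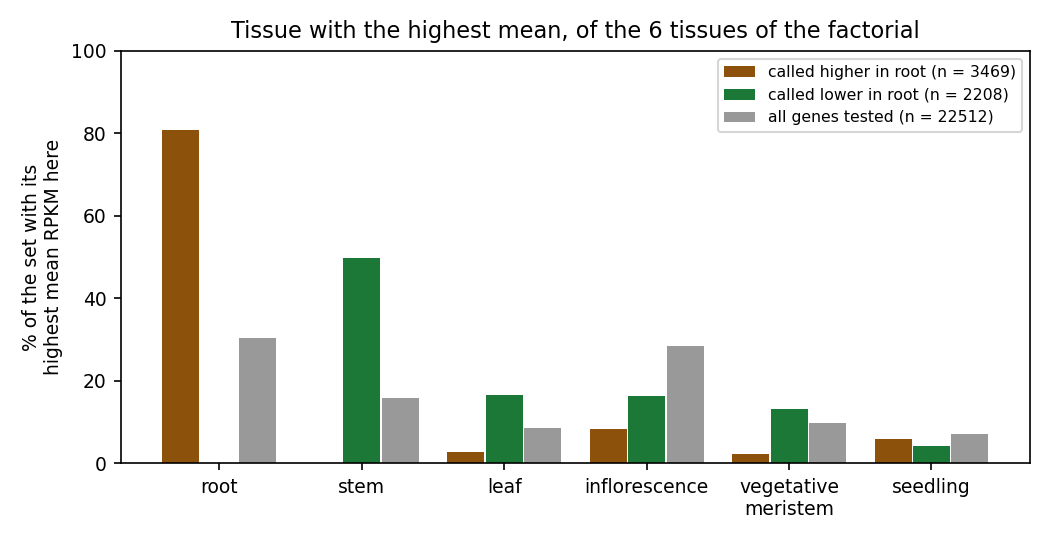
Percent of each gene set (y axis) whose highest mean RPKM was in the tissue on the x axis, for genes called higher in root (brown, 3469), called lower in root (green, 2208) and all genes tested (grey, 22512). The brown set peaks at root with 80.9%, and the green set is spread over stem (49.8%) and the other shoot tissues.

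Most called genes were not followed, in order of locus number, by a gene called the same way. In this naming scheme the digits before the letter g give the chromosome, and the later digits order the genes along it. Of 3437 genes higher in root that had a next-numbered tested gene, 23.5% were followed by another gene higher in root, against 15.4% over all genes. For genes lower in root it was 15.9% of 2195, against 9.84%. Unbroken runs of 4 or more tested genes numbered 64 for higher and 10 for lower genes. The excess over all genes was not tested. Near-identical neighbouring copies may share reads, and how such reads were counted is not given in the sources used here.

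The longest run held 9 genes on chromosome 12, from Solyc12g045020.1.1 to Solyc12g049180.1.1, a wide span of locus numbers, with log2 differences of 1.24 to 5.26. Their summed level was 320 and 283 RPKM in S. pennellii root and 239 and 291 in S. lycopersicum root. In stem it was 36.3 and 17.8 RPKM in S. pennellii and 28.2 and 32.4 in S. lycopersicum. Of the mean stem sum of 28.7 RPKM, 28.5 RPKM came from 1 gene. Among genes lower in root, 1 of the runs of 5 reached from Solyc12g094620.1.1, the abundant stem transcript described above, to Solyc12g094660.1.1, with log2 differences of -5.05 to -1.24. The called share of genes per chromosome ranged from 14% (chromosome 11) to 17.1% (chromosome 5) for higher and from 8.02% (chromosome 11) to 12.1% (chromosome 10) for lower genes.

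Within S. pennellii, 3391 genes (15.1% of genes tested) were higher and 2019 (8.97%) lower in root, and within S. lycopersicum 4980 genes (22.1%) differed, 2917 higher and 2063 (9.16%) lower. The species share no root or stem library in these comparisons, but both rest on 1 fit with a common spread for each gene. Their calls are therefore not independent: without the S. lycopersicum shade root library, 5643 genes were called in S. pennellii, against 5410 with all libraries. In both species 1761 genes were called higher (7.82%) and 1022 lower (4.54%). These are 51.9% of the higher and 50.6% of the lower genes of S. pennellii, and 60.4% and 49.5% of those of S. lycopersicum. Of the genes higher in S. pennellii root, 88.6% had the same sign in S. lycopersicum, and of the genes lower there, 84.7%, against 67.3% of all genes tested. Across all genes the differences of the species, averaged over shade and sun, correlated with Pearson's r of 0.693 and Spearman's rho of 0.563. Single pairs of different species, without this averaging, had r of 0.534 to 0.668. Between shade and sun pairs of one species, r was 0.810 in S. pennellii and 0.672 in S. lycopersicum. Scaling moved the split here too: 62.7% of the calls in S. pennellii were higher in root as deposited, 53.1% with size factors and 48.4% with quantile normalization. In S. lycopersicum it was 58.6%, 54.0% and 49.0%, and among genes called the same way in both it was 63.3%, 56.4% and 51.5%. Single libraries moved it as well: in S. lycopersicum it was 69.1% without the shade root library and 50.4% without the sun root library. Genes called lower numbered 1336 in S. lycopersicum without its shade root library and 1305 in S. pennellii without its sun root library, and genes called higher in S. pennellii numbered 2139 without its shade stem library. The fit of the 8 libraries alone called 2246 genes in S. pennellii and 2150 in S. lycopersicum.

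The genes with the largest differences within a species were mostly those of the mean comparison. Beside them, Solyc04g014290.1.1, numbered close to Solyc04g014320.1.1, had 726 and 796 RPKM in S. pennellii root and 0 reads in its stem, with a log2 difference of 9.57 ± 0.58 (SE, limma adjusted p = 2.7e-08). It had 393 and 329 RPKM in S. lycopersicum root against 0.987 and 0 RPKM in its stem. With 0 reads in S. pennellii stem, the size of its difference there depends on the pseudocount, with 12.89 at 0.1 and 7.26 at 5. In S. lycopersicum, Solyc02g091920.2.1 had 0 reads in root, against 256 and 363 RPKM in stem (log2 difference -8.26 ± 0.31 SE, adjusted p = 1.3e-09). In S. pennellii it had 0.898 and 0 RPKM in root, against 181 and 88.4 RPKM in stem. Root was at or near 0 reads in both species, so the fitted difference depends on the pseudocount, and its species difference is set by the stem levels.

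Between the species, the root minus stem difference itself differed in 1105 genes (4.91%), higher in S. pennellii in 523 (2.32%) and lower in 582 (2.59%). In the first class, 209 genes were called higher in root in S. pennellii alone, 178 were called lower in root in S. lycopersicum alone, and 65 were called higher in both species with a larger rise in S. pennellii. In the second class, 219 genes were called higher in root in S. lycopersicum alone, 216 lower in root in S. pennellii alone, and 73 higher in both. Opposite directions were called in 63 genes, 37 (0.164%) higher in S. pennellii root and lower in S. lycopersicum root, and 26 (0.115%) the reverse. The gap between species was larger in root than in stem for 238 of the 523 genes and 362 of the 582, against 10841 of all 22512, so the first count is near that of all genes.

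These counts depended on the fit: the 8 libraries alone, with 2 residual degrees of freedom, called 0 genes (2642 at an unadjusted p under 0.05) and limma voom 826. Leaving out the S. pennellii shade stem, sun root or sun stem library gave 535, 514 and 568 genes, and leaving out the S. lycopersicum shade stem library 595. Without the S. lycopersicum shade root library 30.9% of the called differences were higher in S. pennellii, and without its sun root library 63.4%, against 47.3% with all libraries. Low expression and reads that do not align to the reference cannot be told apart in a species with hardly a read: 83 of the 582 genes had at most 3 reads in all 12 S. pennellii libraries of the factorial, and 41 of the 523 had at most 3 in the 12 of S. lycopersicum. In the other combinations, 22 of the 523 had at most 3 reads in S. pennellii and 20 of the 582 in S. lycopersicum. Of all 22512 genes tested, 1128 had at most 3 in S. pennellii and 864 in S. lycopersicum.

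**Figure D5:**
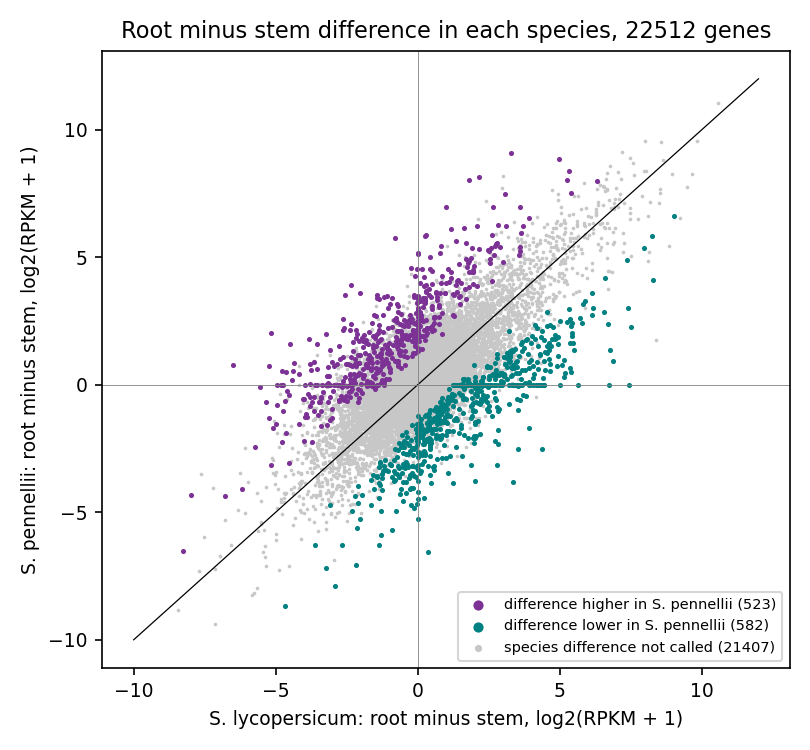
Root minus stem difference of log2(RPKM + 1) in S. pennellii (y axis) and in S. lycopersicum (x axis), 1 point per gene tested. Purple points had a difference called higher (523) and teal points one called lower (582) in S. pennellii, and the line marks equal differences. The points scatter around the line, with the same sign in both species for 67.3% of genes. Points on the horizontal line at 0 include genes without reads in S. pennellii.

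Opposite organ patterns are shown by Solyc08g005650.2.1. It had 2.36 and 3.89 RPKM in S. pennellii root against 0 and 0 RPKM in its stem, but 0 and 0.167 RPKM in S. lycopersicum root against 50.6 and 27.5 RPKM in its stem. The difference between species was 7.17 ± 0.65 on the log2 scale (SE, limma adjusted p = 3.7e-05). The S. pennellii side rests on 23 reads in root and 0 in stem. In the 12 S. pennellii libraries of the factorial the gene had 24 reads, against 800 in the 12 of S. lycopersicum. Low expression and reads that do not align cannot be told apart in S. pennellii. The size of the difference depends on the pseudocount, with 12.81 at a pseudocount of 0.1 and 3.76 at 5.

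Solyc01g104100.2.1 showed the reverse pattern, with 1.83 and 0.777 RPKM in S. pennellii root against 27.2 and 33.6 RPKM in its stem, and 6.64 and 21.7 RPKM in S. lycopersicum root against 0.631 and 0 RPKM in its stem. The difference between species was -7.17 ± 0.88 (SE, adjusted p = 0.00039), or -10.03 and -4.22 with these pseudocounts, and the mean over both species, -0.22 ± 0.44, did not pass the test.

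Solyc01g090610.2.1 was found in S. lycopersicum root alone of the 8 libraries' groups, with 116 and 253 RPKM there and 0 reads in the stem libraries and in S. pennellii root. In the 12 S. pennellii libraries of the factorial it had 3 reads, against 1154 in the 12 of S. lycopersicum (difference between species -7.43 ± 0.59 SE, adjusted p = 2.8e-05, or -10.74 and -5.14 with these pseudocounts). Solyc10g075070.1.1 had 28.5 and 8.81 RPKM in S. pennellii root against 36.5 and 1.6 RPKM in its stem, and 0 and 0.755 RPKM in S. lycopersicum root against 289 and 48.4 RPKM in its stem. Here the light pairs differed widely within a species, and the call (7.28 ± 1.51 SE, adjusted p = 0.012) was kept in 13 of the 18 alternatives whose values are given, with adjusted p from 0.0114 to 0.286. An edgeR test, whose values are not given, called neither this gene nor Solyc01g090610.2.1. The call of Solyc10g075070.1.1 was lost without the S. pennellii sun root, S. pennellii sun stem, S. lycopersicum shade root or S. lycopersicum shade stem library. Each of these 4 calls was lost in the fit of the 8 libraries alone (adjusted p = 0.279 to 0.286).

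No gene passed the test for a root and stem difference that depended on light. The difference in shade minus that in sun was called in 0 of 22512 genes (0.00%) by limma, and likewise in 0 genes by limma voom. At an unadjusted p under 0.05 there were 942 genes (4.18%) in limma and 894 in limma voom. The limma number rose when any root or stem library of S. pennellii was left out. It fell when any root or stem library of S. lycopersicum was left out. None of these fits called a gene. With 5 residual degrees of freedom, a p that misses the threshold does not show that the organs differ alike in shade and sun.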

How the data were processed

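The authors deposited 1 table of RPKM for 52 libraries, and CASAVA 1.4 and BWA 0.5.7 were used, per the submitters' processing notes. Reference, annotation and counting rule: not given in the sources used here. All 52 value columns were matched to samples by title. With a tolerance of 0.02 reads, 100% of values above 0 were whole multiples of 1 read, so reads were recovered from the RPKM. The implied median length was 920 bases, and at that length 1 RPKM stands for 1.65 to 3.62 reads in the 8 libraries.

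Tests used log2(RPKM + 1) in limma 3.58.1 (R 4.3.3) with a trended prior, robust estimation and Benjamini-Hochberg adjustment. A gene was tested where 2 or more of the 24 factorial libraries reached 1 RPKM. Every combination of species and tissue had its own mean, and light had 1 coefficient in each species, which pairs root and stem by species and light and leaves 10 residual degrees of freedom. A tissue-by-light term was added to test light. Calls needed an adjusted p under 0.05 and a log2 difference of at least 1, and such differences understate changes of low genes. Alternatives were other pseudocounts, filters, scalings and moderation, limma voom on the recovered reads with median-ratio library sizes, other blocking, and leaving out each library. Scripts were tested on simulated data. Genes were named by the 2 largest differences per direction among called genes with no overlap and at least 5 RPKM, and by the 2 highest levels in the higher organ. The comparison and the lists were chosen with earlier results of these data known. Planned lists by gene product were not used, since the IDs carry no names.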

Additional observations from a re-analysis of the deposited data

Results flagged for a closer look

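The root minus stem difference differed between species, by the test of that difference, in 1105 genes. The named ones were Solyc10g075070.1.1 (S. pennellii minus S. lycopersicum 7.28 on the log2 scale), Solyc08g005650.2.1 (7.17), Solyc01g090610.2.1 (-7.43) and Solyc01g104100.2.1 (-7.17).

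In 26 groups of 4 libraries of one organ, 4 had a library far from the 3 others by Dixon's criterion. Chance flags about 1 in 20 groups only where values are normal and groups independent. Genes and gene sets chosen on these same libraries do not meet this, so the flags are descriptions. The S. pennellii shade stem library had 29.4% of its reads in genes lower in root, against 25.4% to 25.5% in the 3 other stem libraries. It was also the highest stem library for Solyc04g014320.1.1 (1.14 on log2(RPKM + 1), where the 3 others had 0 reads) and for Solyc07g064160.2.1 (14.13). For Solyc04g014320.1.1 the value is 1 read, and any read beside counts of 0 in the 3 others is flagged. The S. lycopersicum shade stem library was the lowest for Solyc01g111300.2.1 (8.96 on log2(RPKM + 1)). The part of these libraries in the results was not tested beyond leaving each out in turn.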

How the results depend on the processing

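The main counts were 5677 genes for the mean of both species, 5410 in S. pennellii, 4980 in S. lycopersicum, 2783 called the same way in each species, and 1105 for the difference between species. With a pseudocount of 5 the first was 3365. The fit of the 8 libraries with a replicate block of the 4 pairs gave 2246, 2150, 1181 and 0 for the last 4, and the fit with no replicate block gave 5635 for the first. The difference between species was 682 with a pseudocount of 0.1. Leaving out each of the 8 libraries gave 5236 to 5957, 3680 to 5643, 4003 to 4868, 2171 to 2643 and 514 to 1434 genes. The difference between lights was 0 in every alternative run for it, and the fit with no replicate block was not run for it. The cause of these changes was not tested. For single named genes, 422 alternative values kept direction and call, 10 kept the direction only, and none of the 18 alternatives reversed one. A planned edgeR test of the recovered reads was run, but its values are not given here because count models were kept out for a table of RPKM, although limma voom used the same reads. It called fewer genes for the difference between species than limma, and did not call Solyc10g075070.1.1 or Solyc01g090610.2.1 there. Counting error limits the low genes.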

Other observations

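The most abundant transcript of 5 of the 8 libraries, Solyc06g061200.1.1, varied widely within each organ. It had 6092 and 10836 RPKM in S. pennellii root (shade and sun) and 64991 and 20850 in S. lycopersicum root, against 26359 and 10282 RPKM in S. pennellii stem and 6307 and 48871 in S. lycopersicum stem. It took 5.93% of the reads of the S. lycopersicum shade root library and 4.46% of those of the S. lycopersicum sun stem library. The log2 difference between root and stem was 0.02 ± 0.57 (SE, limma adjusted p = 0.995), and in the other tissues its highest value was 4072 RPKM.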
